A study of Mus musculus with 17 samples.

Results

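Replication-dependent histone genes were followed in liver and tumor RNA from mice in which NgBR is deleted in hepatocytes. The members are the genes that carried a name beginning with Hist1h, Hist2h, Hist3h or Hist4h, the older names of the clustered histone genes. The gene symbols in the count tables had mostly been updated, so that 6 symbols in the high-fat diet (HFD) table and 9 in the Western diet (WD) table still had this form. Members were therefore taken by the name that the GENCODE M21 annotation gives to the gene at the same position. This gave 66 members of 24352 genes listed in either table, 32 of 19151 genes under HFD and 65 of 24233 under WD, with 31 in both. In the annotation 70 genes carry such a name.

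The study compared C57BL6 mice with loxP-flanked NgBR and albumin-Cre, which is expressed in hepatocytes (N-LKO, liver-specific knockout), with WT mice; the sources used here do not say which loxP alleles the WT mice carried. Under HFD there were 4 WT and 4 N-LKO livers. Under WD, a high-fat and high-cholesterol diet, there were 3 WT livers, 3 N-LKO livers and 3 tumors from N-LKO mice. Every mouse had been on its diet for 16 weeks, and the labels call the samples of a group biological replicates. Whether the tumors and the N-LKO livers came from the same mice is not stated in the sources used here. RNA came from whole tissue, so other liver cells keep NgBR and are counted too, and in such bulk samples fewer cells of a type and less RNA per cell cannot be told apart.

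Histones H2A, H2B, H3 and H4 form the core around which DNA is wound, and H1 binds the linker between cores. The replication-dependent genes for these proteins are switched on in S phase, when new DNA has to be packed, and are low in resting tissue such as adult liver. Their mRNA usually ends just after a short stem-loop that SLBP, the stem-loop binding protein, holds, and has no poly(A) tail; some of these genes also make longer, polyadenylated mRNA that reads past the stem-loop.

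By name, 52 members belong to Hist1 on chromosome 13 (GRCm38). All of these lie between 21715763 and 23764406 except Hist1h2al, a processed pseudogene far from the others at 51202727 to 51203065. Another 10 are Hist2 on chromosome 3 (96219865 to 96270132) and 3 are Hist3 on chromosome 11 (58948920 to 58956830). The last 1, H4f16, is Hist4 on chromosome 6 (136801553 to 136804415). In the WD table they are 5 H1, 18 H2A, 18 H2B, 11 H3 and 13 H4 genes, and 3, 6, 10, 3 and 9 of them are in the HFD table, which also lists H3c14, an H3 gene. Of the 66 members, 2 are annotated as pseudogenes.

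The stem-loop was found in the annotated 3′ end of 45 members, starting 22 to 59 bases after the stop codon (median 32). It came in 8 versions, of which 1 was carried by 26 genes of the types H1, H2A, H2B and H3, and another by 7 genes, all H4. Another 13 members are annotated only as far as the stop codon, among them H1f5, H2bc13, H2bc15 and H2bc18, so for these reads from the stem-loop itself fall outside the gene model. In 6 members, among them the abundant H2bc4, the annotated 3′ end holds no such sequence. The stem-loops of the members that passed a test below, with the same window of the abundant H1f2, are shown because they are the feature that sets this class of mRNA apart; capitals mark the 6-base stem, the 4-base loop and the other side of the stem (GENCODE M21 transcripts, 5′ to 3′).
H1f2: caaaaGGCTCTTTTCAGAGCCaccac
H1f3: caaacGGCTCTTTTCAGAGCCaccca
H2bc6: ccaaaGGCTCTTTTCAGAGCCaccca
H2bc9: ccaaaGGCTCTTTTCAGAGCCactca
H2bc11: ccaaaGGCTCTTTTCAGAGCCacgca
H2bc12: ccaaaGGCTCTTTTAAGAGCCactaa
H4c3: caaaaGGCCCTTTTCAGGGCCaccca
H4c8: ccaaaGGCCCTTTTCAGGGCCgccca
H4c11: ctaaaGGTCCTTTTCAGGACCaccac
Hist1h4n: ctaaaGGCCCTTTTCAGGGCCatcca

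RefSeq promoters were at hand for 51 members (52 promoters, GRCm38.p6) and were searched over 250 bases before the start on both strands for the octamer ATTTGCAT, known as the site that drives H2B genes, and for CCAAT and TATAA. The octamer was in 23.1% of the members' promoters and in 1.6% of all 32851 promoters of that length. It stood in 46.2% of the H2B and 42.9% of the H2A promoters, and in 0 of the H1, H3 and H4 promoters. Promoters of neighbouring H2A and H2B genes can overlap on opposite strands, so that the same octamer is counted for both. Examples on chromosome 13 are H2ac8 (23571221 to 23571370) and H2bc8 (23571250 to 23571399). CCAAT was in 82.7% against 33.8% and TATAA in 59.6% against 22.8%. The last 150 bases before the start are given for H2bc18 and H2bc12, H2B genes that were higher in tumor, and for H4c8, which was lower, with every match to these 3 motifs in capitals; a match describes the sequence and was not tested as a site.
H2bc18, chr3:96269550-96269699, plus strand: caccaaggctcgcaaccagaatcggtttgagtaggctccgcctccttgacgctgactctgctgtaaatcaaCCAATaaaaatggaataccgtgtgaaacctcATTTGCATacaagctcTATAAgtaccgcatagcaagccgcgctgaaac
H2bc12, chr13:22035671-22035820, plus strand: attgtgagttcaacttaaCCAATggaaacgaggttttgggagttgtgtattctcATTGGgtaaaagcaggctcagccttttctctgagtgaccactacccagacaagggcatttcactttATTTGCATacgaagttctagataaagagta
H4c8, chr13:23530894-23531043, plus strand: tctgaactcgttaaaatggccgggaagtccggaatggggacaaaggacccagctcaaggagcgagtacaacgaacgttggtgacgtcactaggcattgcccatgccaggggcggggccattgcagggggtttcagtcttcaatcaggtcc

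Libraries held 9096110 to 12215784 counts under HFD and 15494731 to 20200618 under WD. Levels are given as CPM, a gene's counts relative to the library total after scaling by TMM, a normalization that lines up the bulk of the genes. TMM factors ran from 0.943 to 1.05 under HFD and from 0.806 to 1.15 under WD; the lowest was that of WT liver replicate 2. Nus1, which encodes NgBR, had 82.4 to 96.0 CPM in WT and 29.3 to 37.9 in N-LKO livers under HFD, and 88.1 to 98.8, 41.7 to 51.1 and 28.9 to 43.9 CPM in WT livers, N-LKO livers and tumors under WD. The summed hepatocyte markers stood at 33960 to 85300 CPM in every library, tumors included. Histone genes are near-copies of each other: 60 of the 66 members share at least 1 stretch of 75 bases, the read length, with another member, and 27 share over 50% of theirs. The authors' counting splits such reads between genes, so single values are uncertain. The 6 members that share none with another member are H1f1, H1f5, H2bc18, H2bc21, H4c14 and H4f16, and their reads may still be divided with other features. Sums over members keep such reads together.

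In the HFD libraries few histone reads were counted outside a few genes, and no member passed the test between N-LKO and WT liver. The total over the 32 members was 142.5, 207.1, 188.5 and 156.9 CPM in the WT livers and 189.7, 183.4, 160.0 and 161.6 CPM in the N-LKO livers. The means were the same to within 0.1 CPM (173.7 ± 29.4 and 173.7 ± 15.1, SD, n = 4), and the groups overlapped. H2bc4, an H2B gene with 2 annotated exons, alone made up 56.2% of that total, and H2bc4 with H1f2, a linker histone gene, 77.7%. By type, H3 averaged 6.83 CPM in N-LKO against 2.48 in WT livers, H1 36.55 against 40.9 and H2A 19.45 against 23.4. H2B averaged 107.0 against 103.3 CPM and H4 3.81 against 3.63, and the groups overlapped for every type. Per kilobase, H2bc4 stood at 84.5 RPKM, H1f2 at 24.0 and the H2A gene H2ac19 at 19.5, whereas the fifth highest, H4c9, was at 2.51.

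H2bc4 had 79.4, 113.4, 106.2 and 90.6 CPM in the WT livers and 103.2, 105.5, 91.6 and 91.1 CPM in the N-LKO livers. H1f2 had 37.5, 40.3, 46.6 and 33.5 CPM in the WT livers and 45.5, 31.7, 30.5 and 33.8 CPM in the N-LKO livers. Both genes overlapped fully between the groups, with log2 fold changes of 0.01 (adjusted p = 0.983) and -0.16 (adjusted p = 0.541) in edgeR's quasi-likelihood test. H2ac19, at 7.16, 13.7, 13.5 and 12.9 CPM in the WT livers and 8.30, 8.40, 8.68 and 9.63 CPM in the N-LKO livers, was lower in each N-LKO liver than in 3 of the 4 WT livers (log2 fold change -0.43, SE 0.19, adjusted p = 0.191). Its neighbour and near-copy H2ac18 ran from 4.02 to 10.4 CPM in WT and from 3.61 to 6.80 in N-LKO livers. H2aw, the H2A gene of the Hist3 cluster, ran from 3.66 to 6.70 and from 2.85 to 5.42 CPM.

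The largest fold change among the tested members under HFD was that of H3c14, an H3 gene of the Hist2 cluster at 96246685 to 96248509 on chromosome 3 that only the HFD table lists. It had 0.801, 3.29, 1.24 and 0.983 CPM in the WT livers and 7.48, 8.94, 4.92 and 1.31 CPM in the N-LKO livers. Of the N-LKO livers 3 were above every WT liver and the other lay within their range (log2 fold change 1.82, SE 0.55, adjusted p = 0.0807). H4c9 and H2bc21 came next, with log2 fold changes of 0.49 and 0.43 (adjusted p = 0.473 and 0.542), and Hist1h2br was among the most negative at -0.30 (adjusted p = 0.663).

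Of the 32 members 11 passed the filter on low counts, and 0 of these 11 were called at an adjusted p under 0.05, where 4.84% of all 13460 genes were. At an unadjusted p under 0.05, 1 was higher (H3c14) and 1 lower (H2ac19), against 11.2% and 11.5% of all genes; DESeq2 called 0 as well. The log2 fold change was above 0 in 45.5% of the tested members and 49.1% of all genes. Over all 32 listed members, the groups did not overlap for 2 that were higher in N-LKO liver, 6.25% against 6.14% of all listed genes, and for 0 that were lower, against 5.9%. These 2 were H2bc13 (0, 0, 0 and 0.00872 CPM in the WT livers, 0.0956, 1.24, 1.21 and 1.92 CPM in the N-LKO livers) and Hist1h2bq, named here after their values were seen. Both were at or under 3 counts in every WT liver, so their N-LKO means were at least 3.35-fold and at least 1.51-fold higher, and neither passed the filter.

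**Figure D1:**
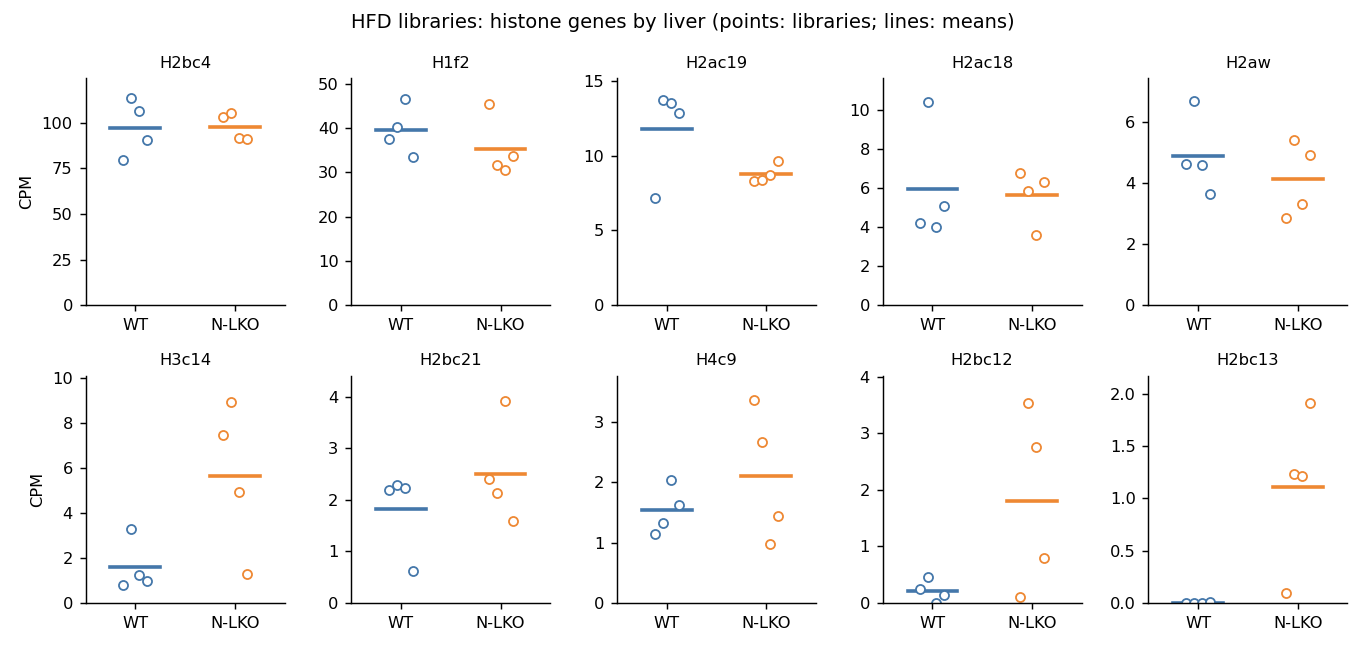
CPM (vertical axes, each from 0) of 10 histone genes in the 4 WT and the 4 N-LKO livers under HFD; points are libraries and lines are means. H2bc4 and H1f2 overlap between the groups, while 3 of 4 N-LKO livers lie above the WT livers for H3c14; H2bc12 and H2bc13 did not pass the filter on low counts and were added to the plot after their values were seen.

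In the WD libraries the histone counts were spread over many more genes, and the total again did not separate N-LKO from WT liver. Of the 65 members 47 had a mean of at least 1 CPM, and the most abundant, H1f2, made up 19.9% of the total. The highest levels per kilobase were those of H4c8 (60.2 RPKM), H2bc4 (58.5) and H1f2 (54.2), followed by H2ac18 (26.1) and H2ac19 (25.7). The total was 427.2, 450.8 and 402.3 CPM in the WT livers and 388.3, 412.8 and 429.5 CPM in the N-LKO livers, a log2 ratio of -0.06 with overlapping groups. No type separated these livers: H1 averaged 142.3 against 127.6 CPM, H2A 42.2 against 50.7, H2B 95.2 against 102.6, H3 15.9 against 16.1 and H4 114.7 against 129.8. Without TMM scaling the log2 ratio of the totals was 0.16.

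No single member passed between N-LKO and WT liver under WD either: edgeR called 0 of 56 members and 0% of all 17829 genes tested, and DESeq2 called 0 of the members. At an unadjusted p under 0.05, 7 members were higher and 4 lower (12.5% and 7.14%, against 7.1% and 5.31% of all genes). The log2 fold change was above 0 in 66.1% of the members tested and 51.4% of all genes. Over all 65 listed members the groups did not overlap for 12 that were higher and 7 that were lower in N-LKO liver (18.5% and 10.8%, against 13.1% and 10.8% of all listed genes). Among members with a mean of at least 1 CPM the most positive log2 fold changes were those of 3 H2B genes. H2bc13 had 0, 0.378 and 0.482 CPM in the WT livers and 0.498, 1.78 and 3.35 CPM in the N-LKO livers (log2 fold change 2.61, unadjusted p = 0.0198, edgeR's adjusted p = 0.365). H2bc15 had 0.487, 0 and 0.260 CPM in the WT livers and 0.822, 0.668 and 0.820 CPM in the N-LKO livers (1.65, unadjusted p = 0.0319, adjusted p = 0.383). H2bc12 had 1.74, 0.581 and 1.22 CPM in the WT livers and 2.34, 4.08 and 3.46 CPM in the N-LKO livers (1.49, unadjusted p = 0.00456, adjusted p = 0.353). The N-LKO livers were above the WT livers in all 3 genes, but the test over all genes did not separate them. Among members of at least 1 CPM on average the most negative were those of H2ac19, with 18.3, 27.4 and 11.3 CPM in the WT livers and 9.16, 8.90 and 12.6 CPM in the N-LKO livers (-0.90), of H4c8 (-0.59, unadjusted p = 0.00308, adjusted p = 0.353) and of Hist1h4m (-0.55).

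A genotype effect that differs between the diets was looked for with an interaction term over the 14 livers. Among the 28 members tested 0 were called, against 1.62% of 15850 genes, and 0 had an unadjusted p under 0.05, where 9.18% of all genes had one with the more positive effect under WD and 10.8% with the less positive. DESeq2 called 0 as well. The interaction term was above 0 in 50% of these members and 50.5% of all genes. The median log2 interaction term was 0.08 over these members and 0.00478 over all genes. Only 11 members had passed the filter on low counts under HFD, so the others among the 28 entered on their WD counts. H4c4, for example, had at most 3 counts in every HFD library. For such members the term could hardly show a difference between the diets, and the absence of calls says little about them.

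Tumor and N-LKO liver, the tissue of the same genotype and diet, differed little in total histone mRNA. The tumors held 432.4, 445.9 and 432.5 CPM, all just above the N-LKO livers, a ratio of 1.07 (log2 0.09). H2A (52.7 ± 5.07 against 42.2 ± 2.51 CPM, SD, n = 3) and H3 (20.6 ± 1.71 against 15.9 ± 3.18 CPM) were higher in every tumor than in every N-LKO liver, whereas H1, H2B and H4 overlapped.

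No single member passed edgeR's threshold between tumor and N-LKO liver: 0 of 56 members were called, against 0.499% of all genes. At an unadjusted p under 0.05, 8 were higher and 0 lower (14.3% and 0%, against 10.1% and 8.19% of all genes), and DESeq2 called 3, H2ac18, H2bc18 and Hist1h2bp. Groups did not overlap for 13 members that were higher in tumor and 1 that was lower, of 65 (20% and 1.54%, against 10.6% and 9.96%). The log2 fold change was above 0 in 80.4% of the tested members and in 51.7% of all genes, with medians of 0.34 and 0.02. Closest to the threshold was H2bc18 (log2 fold change 1.52, SE 0.31, adjusted p = 0.0657), whose values follow below. Hist1h4m, an H4 gene, had 2.15, 3.56 and 5.23 CPM in N-LKO livers and 5.70, 6.87 and 10.9 CPM in tumors (1.10, adjusted p = 0.162), and H2bc15 had a log2 fold change of 1.40 (adjusted p = 0.203). The most negative values among members of at least 1 CPM were those of H4c1 (-0.35), H2bc4 (-0.33) and H4c3 (-0.27).

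**Figure D2:**
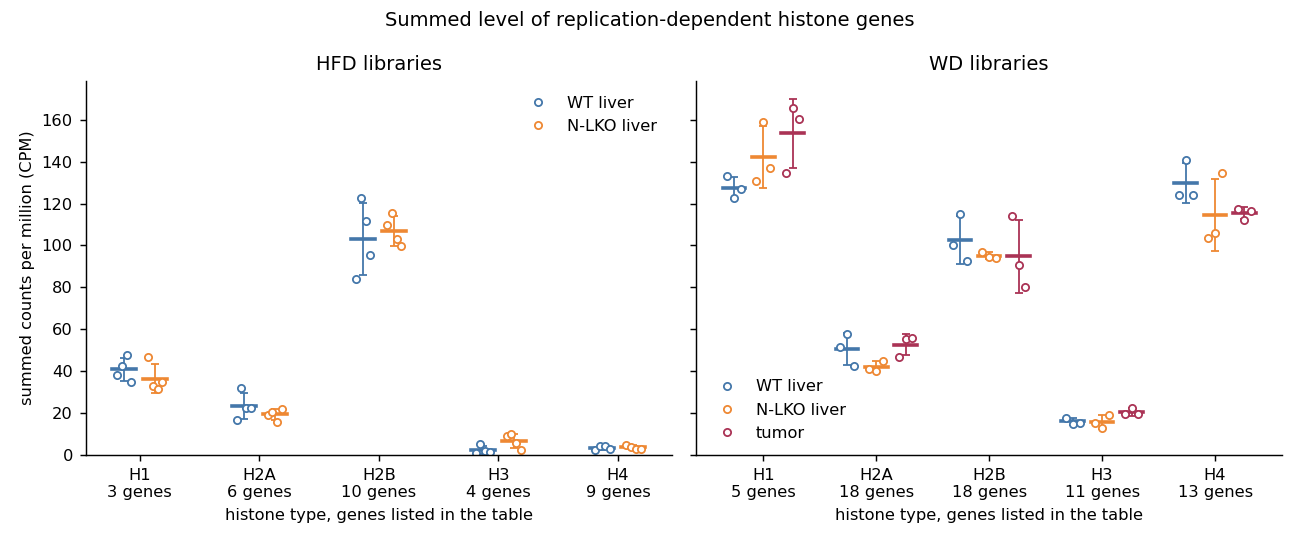
Summed CPM (vertical axis, shared by both panels) of the histone genes of each type in the HFD libraries (left, 4 WT and 4 N-LKO livers) and the WD libraries (right, 3 WT livers, 3 N-LKO livers and 3 tumors); points are libraries, lines are means and bars are 1 SD. The H1 and H3 sums of the tumors lie above and their H4 sums below those of the WT livers, and the H4 genes sum to 2.39 to 5.04 CPM under HFD.

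Tumor and WT liver under WD differed in single histone genes although their totals did not. Here 12 of 56 members passed (21.4%, against 14.9% of all genes): 10 were higher in tumor (17.9%, against 8.08% of all genes) and 2 were lower (3.57%, against 6.8%). The groups did not overlap for 27 of the 65 listed members that were higher and 5 that were lower (41.5% and 7.69%, against 16.5% and 13.1%). The log2 fold change was above 0 in 80.4% of the tested members and in 53.2% of all genes. The higher genes were 6 H2B, 2 H1 and 2 H4 genes and the lower ones 2 H4 genes; 0 of 12 H2A and 0 of 10 H3 genes passed. By type, the median log2 fold change was 0.77 in 5 H1 genes, 0.53 in 12 H2A, 1.24 in 16 H2B, 0.42 in 10 H3 and 0.49 in 13 H4 genes, beside 0.04 over all genes. Without WT liver replicate 2, the library with the lowest TMM factor, 4 passed (H2bc15, H2bc18, H4c11 and H4c8), and in a fit of only these 2 groups 2 did (H2bc18 and H4c8).

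H2B genes made up most of the rises, but apart from H2bc18 they share 75-base stretches with other members. The shared part was 72.6% in H2bc12, 50.4% in H2bc11, 14.3% in H2bc6 and 11.15% in H2bc9. Reads of such near-copies can be divided among them, so their rises are not independent measurements. H2bc18 (ENSMUSG00000105827.1, chromosome 3, 96269752 to 96270132, plus strand), which shares no 75-base stretch with another member, had 0.713, 0.568 and 0.800 CPM in WT livers, 0.697, 1.14 and 1.36 CPM in N-LKO livers and 2.78, 3.32 and 3.07 CPM in tumors. The tumors were above every liver, by a log2 fold change of 2.18 over WT (SE 0.33, edgeR's adjusted p = 0.00782), and it passed in all 18 alternatives tried. Its counts were whole in 0 of the 9 WD libraries, so part of its reads was divided with other features. H2bc15 (chromosome 13, 21754123 to 21754503, plus strand) had 0.487, 0 and 0.260 CPM in WT livers, 0.822, 0.668 and 0.820 CPM in N-LKO livers and 2.19, 2.49 and 1.37 CPM in tumors. The 3 groups of H2bc15 did not overlap (3.05 for tumor over WT, SE 0.63, adjusted p = 0.0162), though 72.3% of its 75-base stretches occur in other members. H2bc12 (chromosome 13, 22035870 to 22036345, plus strand), with the WT and N-LKO values given above, had 3.04, 5.95 and 3.42 CPM in tumors, above the WT but not the N-LKO livers (1.82, SE 0.41, adjusted p = 0.0204).

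The other 3 H2B genes that rose were lower in fold. H2bc6 had 4.54, 2.48 and 3.59 CPM in WT livers, 4.595, 4.40 and 5.78 in N-LKO livers and 8.49, 7.10 and 5.13 in tumors (log2 fold change 0.97, SE 0.27, edgeR's adjusted p = 0.0388). Its annotation runs from 23583670 to 23621124 on chromosome 13 and overlaps that of H1f4. H2bc11 had 0.499, 0.775 and 0.801 CPM in WT livers, 0.974, 1.15 and 1.30 in N-LKO livers and 2.13, 1.79 and 1.06 in tumors (1.29, SE 0.37, adjusted p = 0.0419). H2bc9 had 0.628, 0.435 and 0.866 CPM in WT livers, 0.992, 0.908 and 1.03 in N-LKO livers and 1.36, 1.57 and 1.51 in tumors (1.19, SE 0.34, adjusted p = 0.0428). In all 3 genes every N-LKO liver and every tumor was above the WT livers except for 1 N-LKO value of H2bc6, and only H2bc9 had every tumor above every N-LKO liver.

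The most abundant H2B gene did not follow them. H2bc4 had 78.2, 100.7 and 73.0 CPM in WT livers, 72.8, 69.9 and 56.0 in N-LKO livers and 72.4, 40.3 and 45.3 in tumors (log2 fold change against WT -0.67, edgeR's adjusted p = 0.0710). With its weight the H2B sum was 94.9 ± 17.4 CPM in tumors and 102.6 ± 11.3 CPM in WT livers (SD, n = 3), and these overlapped. H2bc13, with a log2 fold change of 2.67, had 0.836, 3.73 and 1.20 CPM in tumors and an adjusted p of 0.0817. It shares 73.3% of its 75-base stretches with other members.

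Among the linker histones, H1f5 and H1f3 were higher in tumor. H1f5 (chromosome 13, 21779883 to 21780625, minus strand) shares no 75-base stretch with another member and was the only gene of the 12 with whole counts in all 9 WD libraries. It had 1.51, 0.474 and 0.953 CPM in WT livers, 1.61 to 2.79 CPM in N-LKO livers and 3.67, 3.82 and 2.91 CPM in tumors, with no overlap between the 3 groups (log2 fold change over WT 1.82, SE 0.39, edgeR's adjusted p = 0.0174). H1f3 (chromosome 13, 23553262 to 23560686, plus strand) had 17.8, 9.23 and 12.04 CPM in WT livers, 18.4, 16.0 and 18.4 in N-LKO livers and 20.8, 21.8 and 23.8 in tumors (0.77, SE 0.21, adjusted p = 0.0383), and its tumors were above every liver as well. H1f2 had 77.03, 67.7 and 78.9 CPM in WT livers and 70.4, 104.5 and 101.1 in tumors (0.31, adjusted p = 0.316), and H1f4 had a log2 fold change of -0.22. Over the 5 H1 genes the sum was 153.4 ± 16.5 CPM in tumors and 127.6 ± 5.34 CPM in WT livers (SD, n = 3), without overlap.

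H4 genes moved in both directions. H4c11 (chromosome 13, 21735064 to 21735837, plus strand) had 1.12, 2.12 and 1.34 CPM in WT livers, 2.70, 2.61 and 3.91 in N-LKO livers and 4.45, 3.64 and 4.07 in tumors (log2 fold change 1.41, SE 0.30, edgeR's adjusted p = 0.0168). Hist1h4n (chromosome 13, 21831767 to 21832196, minus strand) had 6.47, 5.73 and 3.32 CPM in WT livers, 10.8, 7.18 and 10.9 in N-LKO livers and 12.8, 11.4 and 10.1 in tumors (1.15, SE 0.26, adjusted p = 0.0213). Both stood above the WT livers in every tumor and every N-LKO liver, and overlapped between tumor and N-LKO liver.

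The more abundant H4 genes went the other way. H4c8 (chromosome 13, 23531050 to 23531519, plus strand) had 33.5, 46.2 and 34.1 CPM in WT livers, 24.4, 23.7 and 27.7 in N-LKO livers and 22.7, 19.8 and 22.6 in tumors, so that the 3 groups did not overlap (log2 fold change -0.80, SE 0.15, edgeR's adjusted p = 0.0131), and it passed in all 18 alternatives. H4c3 (chromosome 13, 23697635 to 23698454, minus strand) had 22.7, 27.8 and 26.8 CPM in WT livers, 17.2, 20.1 and 25.4 in N-LKO livers and 17.3, 17.2 and 17.4 in tumors (-0.57, SE 0.16, adjusted p = 0.0394). H4c4 had 27.3, 31.8 and 27.3 CPM in WT livers and 24.3, 19.7 and 19.3 in tumors (-0.45, adjusted p = 0.0564). The H4 sum was 115.3 ± 2.86 CPM in tumors and 129.8 ± 9.56 CPM in WT livers (SD, n = 3), without overlap. H4c8 shares 42.4% of its 75-base stretches with other members, H4c3 16.9% and Hist1h4n 83.4%.

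**Figure D3:**
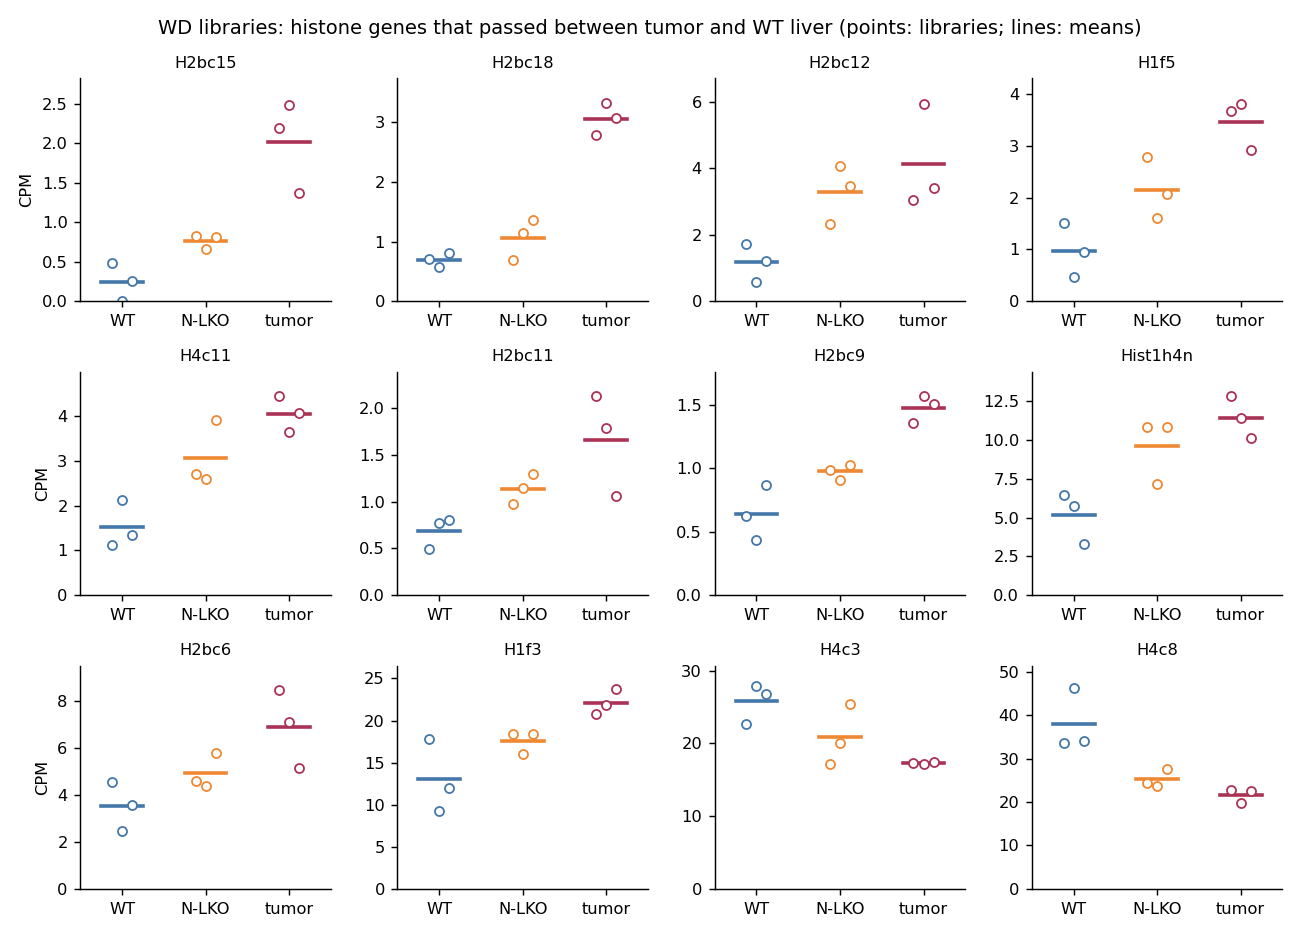
CPM (vertical axes, each from 0) of the 12 histone genes that passed between tumor and WT liver, in the 3 WT livers, 3 N-LKO livers and 3 tumors under WD; points are libraries and lines are means. In the first 10 panels every tumor is above every WT liver, and in the panels of H4c3 and H4c8 every tumor is below; the N-LKO means lie between the means of WT liver and tumor.

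Members of 1 to 10 CPM were more often above 0 than all genes at that level, while those of at least 10 CPM, only 9 genes, were nearer to all genes. Among the 38 tested members with a mean of 1 to 10 CPM, 34 had a log2 fold change above 0 between tumor and WT liver (89.5%, against 61.7% of all genes at that level), and 9 passed as higher. Among the 9 with a mean of at least 10 CPM, 3 were above 0 and 6 below (33.3% above 0, against 42.0% of all genes at that level). Of these 9, 1 passed as higher and 2 as lower. Between tumor and N-LKO liver, 34 of the 38 members at 1 to 10 CPM were above 0 (89.5%, against 54.7%). At 10 CPM or more it was 4 of 9 (44.4%, against 49.0%). Fold changes are relative to the CPM after TMM scaling, and genes of all kinds show part of this pattern.

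**Figure D4:**
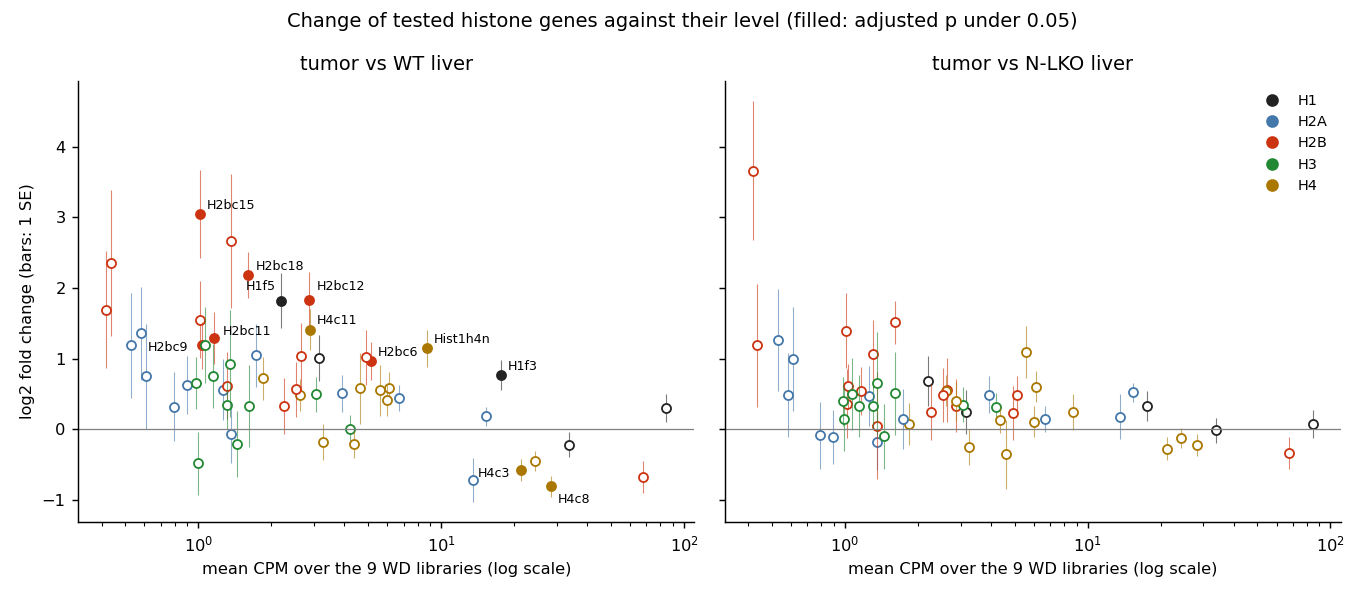
Log2 fold change (vertical axis, bars 1 SE) of the 56 tested histone genes against their mean CPM over the 9 WD libraries (horizontal log axis), for tumor against WT liver (left) and tumor against N-LKO liver (right); colours give the histone type and filled points an adjusted p under 0.05. Most members of 1 to 10 CPM lie above 0 in both panels, and H4c3 and H4c8 are the 2 filled points below it.

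The total over all members hides these differences, since it rests on the abundant genes: tumors and WT livers held 436.9 ± 7.77 and 426.8 ± 24.3 CPM (SD, n = 3), a ratio of 1.02 (log2 0.03). Leaving out TMM scaling gave a log2 ratio of 0.29. Members whose annotation ends at the stop codon summed to 10.1, 4.98 and 6.69 CPM in WT livers, 10.3, 10.8 and 15.2 in N-LKO livers and 16.2, 21.6 and 16.0 in tumors, so that tumors were 2.47-fold above WT livers and 1.48-fold above N-LKO livers, with no overlap. The 9 genes that still have a Hist symbol in the table summed to 17.6, 15.1 and 11.01 CPM in WT livers, 18.3, 15.2 and 22.4 in N-LKO livers and 26.8, 26.9 and 26.7 in tumors, 1.84-fold and 1.44-fold. These 2 groupings were chosen after the data had been seen, and sums over members carry no test.

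Genes that act with the histone genes were read from lists. Between tumor and WT liver, 8.08% of all genes tested were higher and 6.8% lower. Of 26 genes of S phase and mitosis, 9 were higher in tumor than in WT liver and 0 lower (Bub1, Ccna2, Cdk1, Mcm6, Mki67, Plk1, Rrm1, Rrm2 and Top2a; median log2 fold change 0.68, beside 0.04 over all genes), and 0 passed between tumor and N-LKO liver or between N-LKO and WT liver. Top2a, the topoisomerase of dividing cells, had 1.29 to 4.47 CPM in WT livers, 5.64 to 8.18 in N-LKO livers and 10.6 to 19.7 in tumors (log2 fold change over WT 2.34, edgeR's adjusted p = 0.00969). Rrm2, a subunit of the reductase that makes deoxynucleotides, had 2.58 to 3.70, 2.18 to 5.62 and 7.19 to 20.7 CPM (2.30, adjusted p = 0.0127). Pcna, the sliding clamp of DNA replication, did not pass (0.12, adjusted p = 0.665).

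Of 16 tested genes that process or degrade histone mRNA 0 passed in any comparison; Slbp had means of 10.3, 11.99 and 13.1 CPM in WT livers, N-LKO livers and tumors (log2 fold change of tumor over WT 0.34, edgeR's adjusted p = 0.148). Among 10 genes for histone gene transcription Ccne1, a cyclin of S phase entry, was higher (2.35, adjusted p = 0.0334), and among 11 histone chaperones 0 passed. Replication-independent histone genes were read as a further list. Of 11 of these, 3 were higher in tumor than in WT liver, Cenpa, the centromeric H3 (1.33), H3f3a, which encodes H3.3 (0.61), and H1f10, a linker histone, and 1 was lower, Macroh2a1 (-0.50). Among all genes tested 8.08% were higher and 6.8% lower. H1f10 had 0 to 0.0686 CPM in WT livers, under 3 counts in each, 0.159 to 0.342 in N-LKO livers and 0.572 to 1.11 in tumors. Under HFD 0 genes of these lists passed between N-LKO and WT liver, with 20 of the S phase and mitosis genes tested.

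Some markers of other cells differed between tumor and WT liver, where 8.08% of all genes tested were higher and 6.8% lower. The part of these cells in the histone differences was not tested. Summed T and NK cell markers (2 of 8 tested higher than in WT liver, Cd3g and Cd4) stood at 9.59 to 14.1 CPM in tumors, 7.56 to 8.85 in N-LKO livers and 3.93 to 5.24 in WT livers. B and plasma cell markers (1 of 4, Jchain) stood at 20.5 to 33.3, 15.4 to 24.6 and 6.30 to 8.66 CPM, and cholangiocyte markers (2 of 5, Sox9 and Spp1) at 194.7 to 522.5, 114.5 to 150.8 and 17.2 to 69.5 CPM. Spp1 and Sox9, with means of 322.6 and 39.2 CPM in tumors, made up nearly all of that sum. The other 3 markers of bile duct cells were not called: Epcam had means of 1.19, 2.43 and 0.766 CPM in tumors, N-LKO and WT livers, Krt19 had 0.478, 0.755 and 0.495 CPM, and Krt7 had 0.398, 0.844 and 0.427 CPM. Endothelial markers (2 of 5, Cdh5 and Pecam1) stood at 272.4 to 333.4 CPM in tumors and 247.9 to 281.6 in WT livers, while Stab2, the most abundant of them in the livers, had means of 71.1 and 95.2 CPM and Kdr 72.8 and 71.3 CPM, neither called. Myeloid markers (2 of 11 higher, 1 lower) stood at 330.8 to 554.1 and 388.2 to 547.9 CPM. Erythroid and stellate cell markers had 0 of 5 and 0 of 8 called, and of 6 hepatocyte markers 1, Ttr, was lower. In each of these lists every marker had reads in each WD group.

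The H1 and H4 sums differed between the tables more than between any groups within them. The H2B sums overlapped, at 83.85 to 122.6 CPM under HFD and 80.04 to 115.0 CPM under WD. The tables were normalized separately, so the diet cannot be told apart from the table. The H4 genes summed to 2.39 to 5.04 CPM in the HFD libraries and 103.6 to 140.8 CPM in the WD libraries, which list 4 more of them. H4c8 was at 0.0890 to 1.35 CPM under HFD and 19.8 to 46.2 under WD, whereas H2bc4 was at 79.4 to 113.4 and 40.3 to 100.7 CPM. Of the 31 members in both tables, 15 had all 8 HFD libraries below all 9 WD libraries and 0 had them above (48.4% and 0%, against 23.5% and 2.67% of 19032 genes). These were 3 of 3 H1, 8 of 9 H4, 2 of 6 H2A, 1 of 3 H3 and 1 of 10 H2B genes.

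Other RNAs that both tables hold, listed here as lacking a poly(A) tail, were also higher in every WD library, except Neat1. For Neat1, a nuclear RNA, the ranges overlapped (164.7 to 301.8 CPM under HFD and 246.9 to 1181 under WD). Whether all its forms lack a tail was not examined. Rn7s1, of the signal recognition particle, had 1.77 to 6.96 CPM under HFD and 20570 to 63640 under WD. Rn7sk, which holds a transcription factor back, had 2.15 to 4.91 and 5748 to 9930 CPM, and Rpph1, of RNase P, had 0.111 to 1.09 and 1037 to 2275 CPM. Malat1, a nuclear RNA whose end is protected by another structure, had 1403 to 2169 and 2860 to 7072 CPM. The study's methods describe removal of ribosomal RNA and name no step that selects poly(A) for either diet, and what part the library preparation has in these levels was not tested. Under HFD the values of most members thus come from few reads, and the comparison of the genotypes there rests on the 11 members tested.

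**Figure D5:**
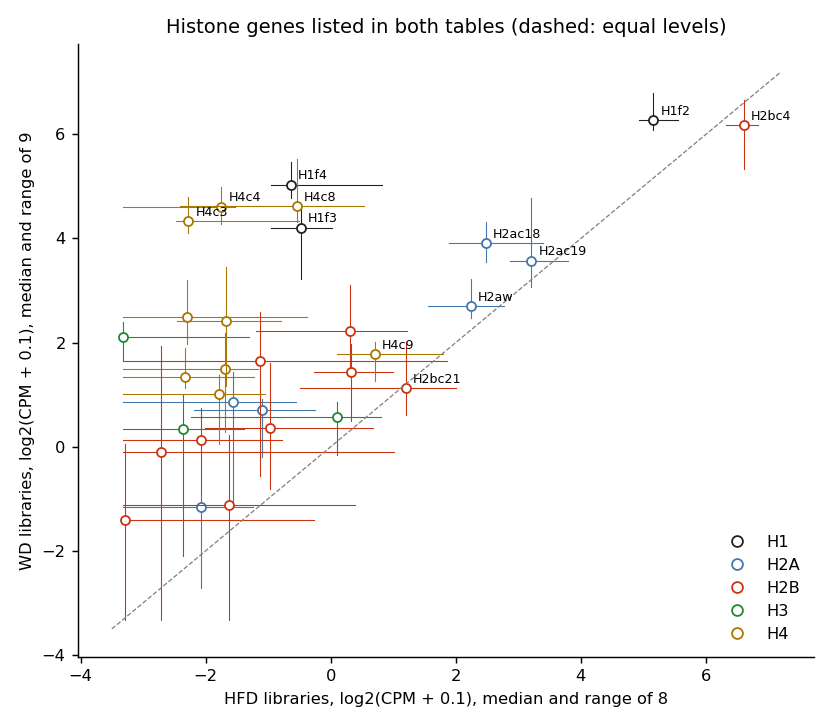
Level of the 31 histone genes listed in both tables, as log2(CPM + 0.1) in the 8 HFD libraries (horizontal axis) and the 9 WD libraries (vertical axis); points are medians, bars run from the lowest to the highest library, colours give the histone type and the dashed line marks equal levels. H4c3, H4c4, H4c8, H1f3 and H1f4 lie far above the line, whereas H2bc4 lies near it.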

How the data were processed

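RNA-seq was available for 17 mouse samples, 8 under HFD and 9 under WD. The methods describe Ribo-Zero removal of ribosomal RNA, single-end reads and TopHat2, whereas the submitters' processing notes name STAR, Partek and mm9. Gene starts in the tables match GRCm38 for 98.9% of genes, so coordinates are those of GENCODE M21. The authors used Partek to obtain the deposited estimated counts, in which a read may be divided between features; 69.3% (HFD) and 66.2% (WD) of the values are whole. Versions, strand use and annotation are not given in the sources used here.

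After rounding, counts were fitted in R 4.3.3 by edgeR 4.0.16 (quasi-likelihood test, TMM, filterByExpr, two-sided, Benjamini-Hochberg adjusted p under 0.05 over all genes tested). HFD livers were fitted alone, and the 3 WD groups together, so that the WD comparisons share groups. The diets were compared only through the interaction. CPM is the unrounded count over the TMM-scaled total; RPKM divides it by annotated exon length, which includes long forms. Folds against a group at or under 3 counts in every library are lower bounds against the CPM of 3 counts. These bounds cover counting error only. Scripts were tested on simulated counts. DESeq2 1.42.0, limma 3.58.1, other scalings, filters, a length and GC offset, a replicate block and fits without each library were the alternatives.

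The members and lists were chosen with earlier results of these data known. Genes given in full are the 8 most abundant per table, all that passed, and the 3 largest rises and falls per comparison with a mean of at least 1 CPM. All per-sample columns could be assigned to samples (0 were not). The study's own test needs aligned reads and was not run.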

Additional observations from a re-analysis of the deposited data

Results flagged for a closer look

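Under HFD, 3 of 30 sets of 4 libraries (WT and N-LKO livers, over single members and sums) had a library far from the other 3, where chance would give about 1 in 20. All 3 were sets of WT livers. H2ac19 was low in replicate 1, at 7.16 CPM against 12.9 to 13.7 CPM, and without that library it passed as lower in N-LKO liver (adjusted p = 0.0226, edgeR). Its near-copy H2ac18 was high in replicate 2, at 10.4 CPM against 4.02 to 5.11 CPM. H2bc21, which shares no 75-base stretch with another member, was low in replicate 4, at 0.610 CPM against 2.18 to 2.29 CPM. Groups of 3 libraries were not examined in this way.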

How the results depend on the processing

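The 12 members that passed between tumor and WT liver became 2 in a fit of only these groups, which has fewer samples, and 9 (no filter, replicate block) to 17 (DESeq2) in the others; with a length and GC offset the split was 10 higher and 4 lower. Leaving out 1 library gave 4 to 12: 4 without WT replicate 2, 5 without WT replicate 3, 6 without tumor replicate 2 and 7 without N-LKO replicate 2. H2bc18 and H4c8 passed in all 18 alternatives, H2bc15 in 17, H1f5 in 16, H4c11 and Hist1h4n in 15, H2bc12 in 14, H4c3 and H2bc6 in 9, H1f3 and H2bc9 in 8 and H2bc11 in 6. Between tumor and N-LKO liver DESeq2 called 3, and leaving out 1 library gave 0 to 2 (2, H2ac18 and H2bc18, without tumor replicate 1). Under HFD 1 member passed without the filter (H2bc13) and 1 with the replicate block (H3c14, log2 fold change 1.79, edgeR's adjusted p = 0.0391); leaving out 1 library gave 0 to 1: H2ac19 without WT replicate 1, H2bc13 without N-LKO replicate 1 and H3c14 without N-LKO replicate 4. N-LKO and WT liver under WD and the interaction stayed at 0 in every alternative run. The cause of these changes was not tested. Same-numbered libraries correlated in their deviations at -0.124 to 0.107, which gave no sign of pairing by replicate number. This cannot decide whether tumors and N-LKO livers came from the same mice, because the numbers in the library names run in another order. The replicate block changed no other count of calls by over 1.5 times.

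Log2 ratios of the sums moved by more than the spread between replicates as follows. With members of whole counts in every library only, they were 0.32 under HFD and, under WD, 0.26 (N-LKO over WT), 0.48 (tumor over N-LKO) and 0.74 (tumor over WT). With Hist symbols only, the WD ratios were 0.35, 0.52 and 0.88, and with members ending at the stop codon or stem-loop -0.15, 0.30 and 0.15, both chosen after seeing the data. Without TMM the ratios over WT were 0.16 for N-LKO and 0.29 for tumor, and without H1 -0.16 and -0.0777. The tumor ratio over WT was -0.0302 without the most abundant member and -0.0871 with members of both tables. Leaving out 1 library gave -0.08 to 0.09 (HFD), -0.10 to -0.02, 0.05 to 0.13 and -0.01 to 0.08. Of the values for single genes 1198 kept their side of the threshold, 16 gained and 63 lost it, and 0 turned direction while called. For members under 1 CPM, depth limits what can be seen.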
